A study of Drosophila melanogaster with 14 samples.

Results

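Binding of Yorkie (Yki) was set against binding of GAGA factor (GAF) in wing imaginal discs, the larval epithelial sacs that become the adult wings of the fly. All 6491 peaks of the Yki list and all 6328 peaks of the GAF list from this tissue were taken, 12819 of the 29537 peaks in the 5 lists of the series. A peak is a stretch of genome where fragments recovered by chromatin immunoprecipitation and sequencing (ChIP-seq) pile up. The Yki list stands for 1 library made with an anti-Yki antibody, the GAF list for 2 libraries made with an antibody to Trl, the gene name of GAF, and 2 libraries of input chromatin without antibody accompany them. The discs came from wandering third-instar (L3) larvae of the Iso1 strain, with no other genotype or treatment in the labels, and whole embryos of the same strain aged 8 to 16 hours supplied the other 3 lists (Yki, GAF and the histone mark H3K4me3). A disc holds several cell types, which peaks from whole discs cannot separate. Each antibody has 1 list per tissue, so no value below has a replicate error. Intervals are 95% Wilson intervals that cover counting error only, and sequencing depth is unknown.

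Yki is the coactivator at the end of the Hippo pathway, the kinase cascade that limits organ growth. When the pathway is quiet, Yki enters the nucleus, binds no DNA by itself, and is carried to its targets by partners such as Scalloped, driving growth and survival genes in the wing disc. GAF recognises repeats of GA in DNA, often binds several such elements close together, and is known for keeping promoters and enhancers free of nucleosomes. H3K4me3, trimethylation of lysine 4 on histone H3, marks the start of active genes. Peaks are given by position on the dm3 build and not by gene, since no annotation of that build was used here.

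Yki peaks were narrow and GAF peaks ranged from equally narrow to very wide. The Yki widths had quartiles of 285, 418 and 665.5 bp and reached 4907 bp, and the GAF widths had quartiles of 356, 634.5 and 1246.25 bp and reached 8842 bp. Peaks of at least 1 kb made up 10.5% of the Yki list and 32.6% of the GAF list. In both lists the narrowest peak measured 200 bp and the shortest gap between neighbours was 51 bp, so no closer pair of peaks can appear as separate. Neighbouring peaks of 1 list lay a median of 5137.5 bp apart for Yki and of 7027 bp for GAF. Gaps of at most 1 kb made up 27.4% of the 6478 Yki gaps and 21.7% of the 6315 GAF gaps. Each list carries a score per peak by the authors, of unstated scale, and it serves here only as a rank. Ranks are given as percentiles of the list, where 100 is the highest score. Within a list, score and width went together (Spearman's rho 0.72 across 6491 Yki peaks and 0.89 across 6328 GAF peaks), which bears on every comparison by score or width below.

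Sharing 1 bp or more, 4089 Yki peaks lay on a GAF peak (63.0%, interval 61.8 to 64.2) and 3281 GAF peaks lay on a Yki peak (51.8%, 50.6 to 53.1). In bases, 2.27 Mb were common to both lists, which is 64.3% of the length covered by Yki peaks and 37.0% of the length covered by GAF peaks. Shared peaks were the wider ones in each list. The median was 499 bp for Yki peaks on GAF (quartiles 325 and 800) and 329 bp for Yki peaks off GAF (253 and 461.75). It was 1099 bp for GAF peaks that met Yki (584 and 1842) and 411 bp for those that did not (290 and 659). Joining touching peaks gave 8642 sites, of which 3193 held both proteins, 2402 held Yki alone and 3047 held GAF alone. Of the 3193 joint sites, 2467 (77.3%) were made of 1 Yki and 1 GAF peak, 642 of several Yki peaks and 1 GAF peak, 48 of 1 Yki peak and several GAF peaks, and 36 of several of each.

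The usual arrangement was a Yki peak lying wholly inside a wider GAF peak. This held for 2773 of the 4177 overlapping pairs (66.4%, 64.9 to 67.8), with a median Yki width of 473 bp and a median GAF width of 1774 bp. In 298 pairs (7.13%, 6.39 to 7.95) the GAF peak lay wholly inside the Yki peak. In these the median Yki width was 817 bp and the median GAF width 337 bp, and the GAF scores were low, at a median percentile of 19.8, beside 73.0 for their Yki partners. The remaining 1106 pairs (26.5%) overlapped in part, with a median of 310.5 bp in common. Contacts at the very edge were few: 81 of the 4177 pairs shared less than 50 bp.

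Where 1 Yki peak met 1 GAF peak, the distance between their centres was measured. Peaks that share bases cannot have centres farther apart than their widths allow. Short distances and Yki midpoints inside GAF thus follow in part from how the pairs were chosen. The distance between midpoints in these 2467 pairs had a median of 127.5 bp (quartiles 54.75 and 241.75), in GAF peaks with a median width of 941 bp, and was at most 100 bp in 41.9% of pairs. The Yki midpoint fell within the GAF peak in 90.2% of them. The offset had no preferred side along the chromosome, with 1228 Yki midpoints at the lower and 1232 at the higher coordinate. Along quartiles of the GAF score, from lowest to highest, the median distance was 100.75, 111.5, 114.5 and 154 bp while the median GAF width was 298.5, 507, 928 and 1569 bp. The distance between centres thus differed far less between these classes than the width of the GAF peak did.

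Many wide GAF peaks held several separate Yki peaks. Of 6328 GAF peaks, 683 (10.8%, interval 10.1 to 11.6) overlapped at least 2 Yki peaks: 537 held 2, 96 held 3, 37 held 4, 9 held 5 and 4 held 6. Together they accounted for 1579 of the 4177 pairs (37.8%). The median GAF width was 411 bp with no Yki peak, 911 bp with 1, 2028 bp with 2, 3083.5 bp with 3 and 4567 bp with 4. The share of the GAF peak's length covered by Yki stayed near 50% throughout, at 49.4% with 1 Yki peak, 51.9% with 2, 53.0% with 3 and 50.6% with 4. The median percentile of the GAF score was 34.1 with no Yki peak, 64.0 with 1, 82.1 with 2 and 91.1 with 3 or more.

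More Yki peaks went with wider GAF peaks, though the narrowest and the widest quartile each held GAF peaks with none and with several. In the widest quartile of GAF peaks, at 1247 bp and above, 558 of 1582 (35.3%, 33.0 to 37.7) held at least 2 Yki peaks, 876 held 1 and 148 (9.36%, 8.02 to 10.9) held none. In the narrowest quartile, at 356 bp and below, 7 of 1582 held 2 or more and 1210 (76.5%, 74.3 to 78.5) held none. Inside the widest quartile the median width was still 2529 bp for peaks with at least 2 Yki peaks, 1728 bp for those with 1 and 1541 bp for those with none.

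**Figure D1:**
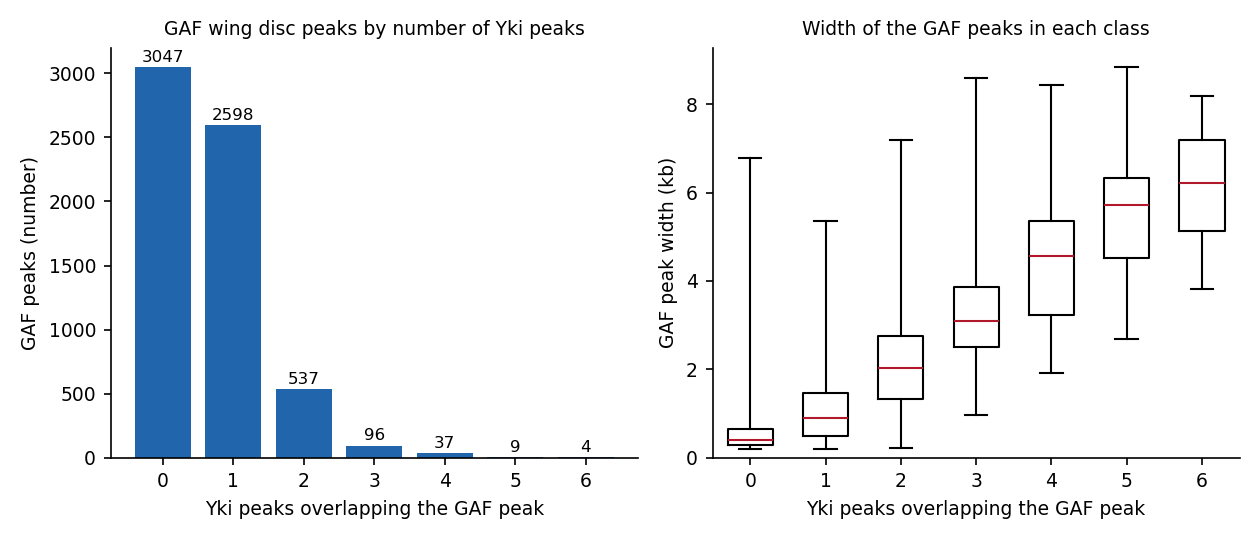
Left, number of GAF wing disc peaks (bars, labelled with the count) by how many Yki peaks overlap them. Right, GAF peak width in kb for the same classes, where the line in each box is the median, the box spans the quartiles and the whiskers reach the narrowest and widest peak. Counts drop from 3047 GAF peaks without Yki to 4 with 6 Yki peaks, while the median width goes from 411 bp to 6219.5 bp.

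Yki peaks under the same GAF peak were packed closely. Neighbouring Yki peaks that shared a GAF peak, 896 steps in all, had a median gap of 247 bp (quartiles 121.75 and 478) and a median distance between midpoints of 884.5 bp (650.25 and 1226). Neighbours on different GAF peaks had a median gap of 9421 bp (n = 2024), and neighbours that were both off GAF 3771 bp (n = 1231). Yki peaks that share a GAF peak cannot lie farther apart than its width, so the order of these medians follows in part from how the classes were formed. Of the 1772 Yki gaps of at most 1 kb, 815 (46.0%) lay inside a shared GAF peak, 380 (21.4%) joined peaks that were both off GAF, and the others joined peaks of which at least 1 lay on a GAF peak that its neighbour did not touch. Among the 896 steps inside a GAF peak, 359 (40.1%) had a gap of at most 200 bp. With Yki peaks up to 200 bp apart joined first, 439 GAF peaks instead of 683 held several.

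Ranks were also compared between Yki peaks of the same GAF peak. In the 537 GAF peaks with 2 Yki peaks, the percentiles of the pair differed by a median of 28.7, which is a description, since any 2 peaks sorted by score have a higher and a lower one. In 69 of them the pair joined the highest and the lowest quartile of the Yki list, and in 55 both lay in the highest quartile. The higher scoring Yki peak was the one nearer to the centre of the GAF peak in 352 of the 531 cases without a tie (66.3%). With 3 or more Yki peaks, the highest scoring one was the nearest to the centre in 55 of 140 (39.3%). Higher scoring Yki peaks are also wider, and a wider peak has less room to lie off the GAF centre. The shares that width alone would give were not computed, so both values are only descriptions. In 452 of the 537 GAF peaks with 2 Yki peaks (84.2%) the pair lay on both sides of the GAF centre. Yki covered 51.9% of the length of these GAF peaks, which leaves little room for both on 1 side. This share thus follows largely from the widths. Yki peaks with company had slightly lower scores than those alone on their GAF peak: the median percentile was 63.6 for the 2515 alone, 56.3 for the 1070 in pairs, 59.9 for the 504 in larger sets and 33.7 for the 2402 off GAF.

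The 4 GAF peaks with 6 Yki peaks and the widest of the 9 with 5, on dm3, spanned 3811 to 8842 bp. All 5 were also in the embryo GAF list, which held 98.6% of the GAF peaks with 3 or more Yki peaks. On X, the GAF peak from 7949534 to 7957706 (8173 bp, GAF percentile 98.1) held 6 Yki peaks of 214 to 1053 bp. Their percentiles along the chromosome were 61.9, 69.6, 86.3, 99.5, 24.2 and 30.7, with the highest, 639 bp wide, 1634 bp to the right of the GAF centre. On 2L, the GAF peak from 18463672 to 18470530 (6859 bp) held 6, of which the leftmost, with a score of 31.38, reached past the GAF edge and the highest, at percentile 96.0, lay 1570 bp to the right of the centre. On X, the peak from 3633786 to 3639365 (5580 bp) also held 6, with percentiles between 14.7 and 90.9. The narrowest of the set, on 3R from 13504484 to 13508294 (3811 bp, GAF percentile 84.8), held 6 Yki peaks of modest rank, between 14.7 and 68.2. The widest GAF peak of the list, on 3R from 5907231 to 5916072 (8842 bp), held 5 Yki peaks, from percentile 6.75 to 95.6.

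**Figure D2:**
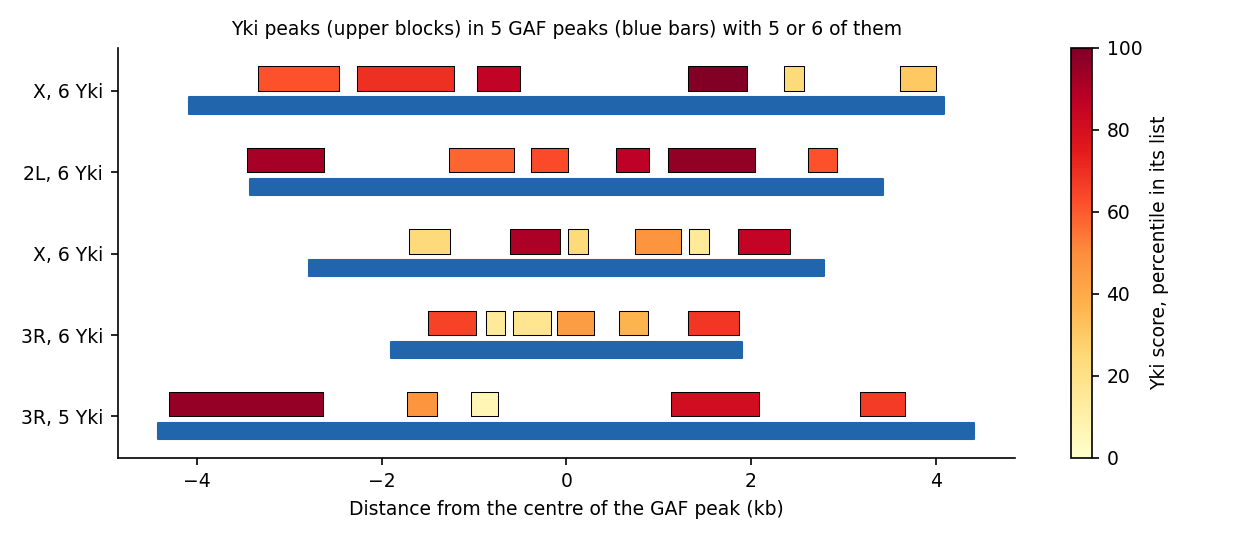
The 4 GAF wing disc peaks with 6 Yki peaks and the widest of the 9 with 5, each labelled by chromosome arm and number of Yki peaks. The horizontal axis is the distance from the GAF peak's centre in kb, blue bars are GAF peaks, and blocks above them are Yki peaks coloured by the percentile of their score in the Yki list. Yki peaks are spread over the GAF peak, from percentile 6.75 to 99.5 over the 5 rows.

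The opposite case, several GAF peaks on 1 Yki peak, was rare. It held for 85 of 6491 Yki peaks (1.31%), 82 with 2 GAF peaks and 3 with 3. These Yki peaks were wide, with a median of 1129 bp for those on 2 GAF peaks and 493 bp for those on 1. The Yki peak with the highest score of its list, on 3L from 15129423 to 15130408 (986 bp), was among them. It lay on GAF peaks of 202 and 256 bp with scores at percentiles 1.95 and 14.2.

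Over all overlapping pairs, scores of the 2 proteins were weakly related. Across the 4177 pairs Spearman's rho was 0.31. Across the 2467 pairs of 1 Yki and 1 GAF peak it was 0.41, and across the 3281 GAF peaks paired with their highest scoring Yki peak it was 0.44. With a reciprocal overlap of 50% it was 0.58, but that rule takes pairs of like width, and width goes with score. All these values are descriptions across sites of the same 2 lists, which share the tissue and the genome, and pairs that share a peak are not independent. Both widths also rank with the scores. After a linear effect of the ranks of both widths was removed, rho was 0.28 over all pairs, 0.26 over the pairs of 1 Yki and 1 GAF peak and 0.26 with the highest scoring Yki peak. Within width quartiles of the GAF peak, from narrowest to widest, rho was 0.05 (n = 379), -0.02 (n = 584), 0.12 (n = 1010) and 0.35 (n = 2204). By chromosome arm it ranged from 0.29 on 3L (n = 888) to 0.35 on 2R (n = 835), with 0.30 on X (n = 731). Pairs with the Yki peak inside the GAF peak had a rho of 0.46 (n = 2773), or 0.34 after both widths. Pairs that overlapped in part had 0.25 (n = 1106), or -0.04 after both widths.

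The relation was also described by counts over the score quartiles of both lists. Of the 1444 pairs that involve a Yki peak of the highest score quartile, 941 (65.2%) had a GAF partner in the highest quartile and 98 (6.79%) one in the lowest. Of the 736 pairs with a Yki peak of the lowest quartile, 268 (36.4%) had a partner in the highest GAF quartile and 115 (15.6%) in the lowest. Over all 4177 pairs, 2096 (50.2%) had a GAF partner in the highest quartile and 447 (10.7%) one in the lowest. Each of these shares lies between those of the highest and the lowest Yki quartile. Among the 324 Yki peaks in the highest 5% of their list, 305 (94.1%, 91.0 to 96.2) lay on GAF, at a median GAF percentile of 94.0, although in 44 of their 325 pairs the GAF partner lay in the lower 50% of its list. Among the 316 GAF peaks in the highest 5%, 315 (99.7%, 98.2 to 99.9) held Yki. The background shares were 63.0% of all Yki and 51.8% of all GAF peaks.

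**Figure D3:**
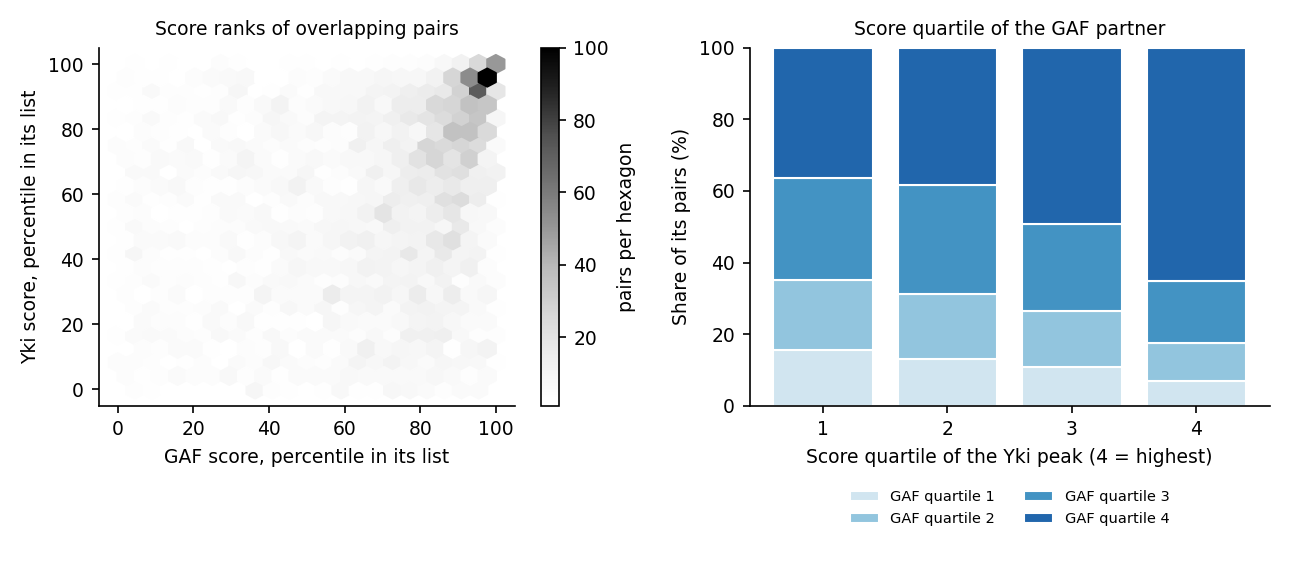
Left, percentile of the Yki score against percentile of the GAF score for the 4177 overlapping pairs, with darker hexagons holding more pairs. Right, for each score quartile of the Yki peak, the share of its pairs in percent whose GAF partner lies in GAF score quartile 1 to 4 (light to dark blue). Pairs gather in the upper right corner, and the darkest segment covers 36.4% of the pairs in Yki quartile 1 and 65.2% in quartile 4.

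Single sites show the range behind the weak relation over all pairs. The pair with both scores nearest the top lay on 2R, a Yki peak from 15993663 to 15994358 (score 100.66, percentile 99.97) in a GAF peak from 15993308 to 15995446 (score 848.86, percentile 99.97). Next came a pair on 3R, a Yki peak from 15147511 to 15148157 (percentile 99.8) in a GAF peak from 15146897 to 15148479 (percentile 99.9). At the other end stood Yki peaks of high rank on GAF peaks of low rank, led by the top Yki peak on 3L described above. On 2L, a Yki peak from 10056993 to 10057713 at percentile 97.8 touched a 226 bp GAF peak at percentile 0.964. On 3R, a 3077 bp Yki peak from 14068001 to 14071077 at percentile 98.5 had a 402 bp GAF peak at percentile 3.64 near its left edge, 1322.5 bp from its centre. None of the GAF peaks in the 5 pairs of this kind was in the embryo GAF list, which held 9.86% of all GAF peaks with Yki in the lowest score quartile. The 5 pairs with the largest excess of GAF rank were each in a GAF peak that held a further Yki peak. GAF peaks with at least 2 Yki peaks held 37.8% of all pairs. In the highest GAF score quartile, 469 of the 1437 GAF peaks with Yki were of this kind. Such peaks have more than 1 chance to hold a Yki peak of low rank, so the count is only a description. On 3L, the 6613 bp GAF peak from 22827057 to 22833669, at percentile 98.0, held 4 Yki peaks, and the one at 22831281 ranked at percentile 3.69. On 2L, the Yki peak with the lowest score of its list, 5.71, lay in a GAF peak from 16587309 to 16589075 at percentile 95.5.

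Higher scoring Yki peaks were more often on GAF, also among peaks of like width. From the lowest to the highest quartile of the Yki score, 45.1%, 53.6%, 67.3% and 86.0% of Yki peaks lay on GAF, where the list as a whole stood at 63.0%. Within each quartile of Yki width, peaks with the higher scores were on GAF more often than those with the lower scores: 49.7% against 42.5% in the narrowest, and 92.2% (90.2 to 93.9) against 78.7% (75.7 to 81.3) in the widest, where the median widths were 1074.5 and 844 bp. For GAF peaks the order depended on width. In the widest quartile, 98.6% (97.5 to 99.2) of the higher scoring and 82.7% (79.9 to 85.2) of the lower scoring peaks held Yki. In the narrowest quartile, 20.4% (17.7 to 23.3) of the higher scoring and 26.7% (23.7 to 29.9) of the lower scoring peaks did, although the higher scoring ones were the wider, with medians of 294 and 244 bp.

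The 2 classes of GAF peak differed in their overlap with the embryo lists, which played no part in defining them. Embryo H3K4me3 peaks overlapped 54.5% (52.8 to 56.2) of GAF wing disc peaks with Yki and 18.5% (17.2 to 20.0) of those without, where all GAF peaks stood at 37.2%. This order held in every quartile of GAF width at 1 bp of overlap. In the narrowest it was 54.8% (49.8 to 59.8) with Yki and 18.2% (16.1 to 20.5) without, and in the widest 60.3% (57.8 to 62.8) with Yki and 29.7% (23.0 to 37.5) without. Within the widest quartile the share was 66.5% (62.5 to 70.3) with at least 2 Yki peaks, 56.4% (53.1 to 59.6) with 1 and 29.7% with none. Between several Yki peaks and 1 the order was the same in the quartile just below the widest: 59.3% (49.1 to 68.9) of 91 against 44.7% (41.4 to 48.1) of 827. It was the other way in the narrowest, with 28.6% (8.22 to 64.1) of 7 against 55.3% (50.2 to 60.4) of 365. So it was in the next, with 40.7% (24.5 to 59.3) of 27 against 53.6% (49.3 to 57.8) of 530. Those quartiles hold few peaks with several. With a reciprocal overlap of 50% with the H3K4me3 peak, which narrow peaks seldom reach, the difference in the narrowest quartile was -0.66 percentage points, with Yki minus without, instead of 36.7. Wing discs have no H3K4me3 list here, so these shares describe the embryo mark at wing disc sites.

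Presence of GAF in the embryo followed another order. Of all GAF wing disc peaks 61.1% overlapped an embryo GAF peak, 66.2% (64.6 to 67.8) of those with Yki and 55.6% (53.9 to 57.4) of those without. Among peaks of like width this order turned in all quartiles but the widest. In the narrowest quartile of GAF width 10.5% (7.76 to 14.0) of peaks with Yki and 40.3% (37.6 to 43.1) of peaks without were in the embryo GAF list. In the quartile above it was 25.5% (22.1 to 29.3) with Yki and 54.0% (51.0 to 57.1) without, in the next 66.4% (63.3 to 69.4) and 77.3% (73.9 to 80.3), and in the widest 96.4% (95.3 to 97.2) and 94.6% (89.7 to 97.2). Within quartiles of the GAF score the order likewise turned in all but the highest. It was 9.86% (7.40 to 13.0) with Yki and 39.2% (36.4 to 42.0) without in the lowest, and 99.7% (99.3 to 99.9) and 97.2% (93.1 to 98.9) in the highest. In the narrowest width quartile the GAF score had a median percentile of 12.8 in peaks with Yki and 16.1 in peaks without. The part of this score difference in the result was not tested. Among the narrowest GAF peaks, those with Yki thus had the higher share at embryo H3K4me3 and the lower share at embryo GAF. Embryo Yki peaks overlapped 35.8% of all GAF wing disc peaks, 54.3% (52.5 to 56.0) of GAF peaks with Yki and 16.0% (14.7 to 17.3) of those without.

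**Figure D4:**
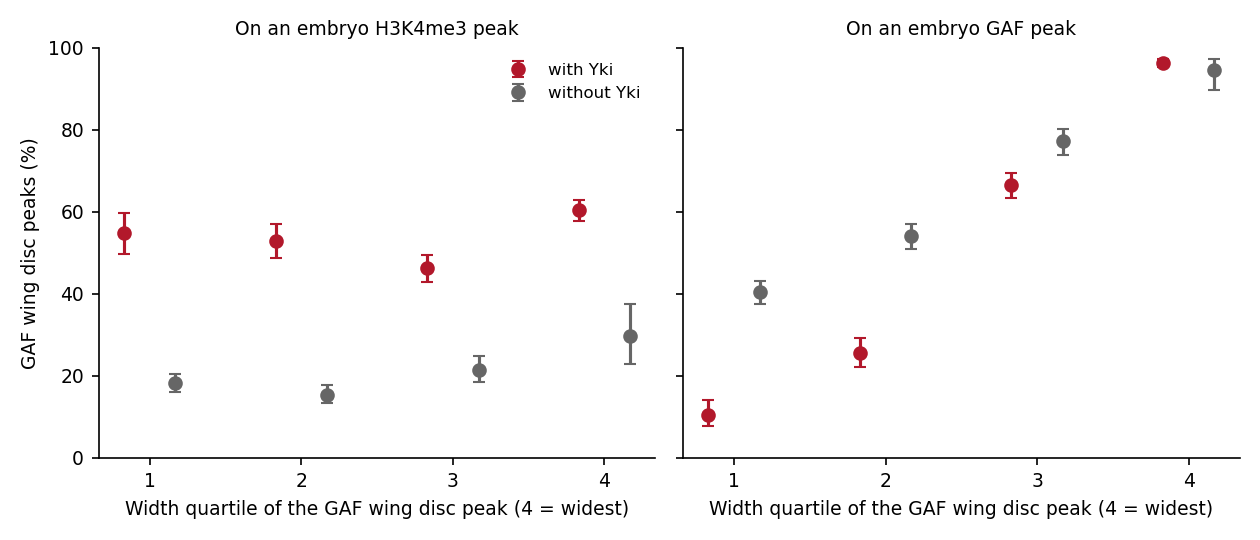
Share of GAF wing disc peaks in percent that overlap an embryo H3K4me3 peak (left) or an embryo GAF peak (right) by at least 1 bp, for width quartiles 1 (narrowest) to 4 (widest). Red points are GAF peaks with Yki, grey points those without, and bars are 95% Wilson intervals. Red lies above grey in all 4 quartiles on the left, and below grey in quartiles 1 to 3 on the right.

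For peaks off the other protein's list, the gap to its nearest peak was measured. How often arbitrary positions lie as near was not computed. The values therefore do not show closeness beyond what the density of the lists gives. The 2402 Yki peaks off GAF had a median gap of 4348 bp to the nearest GAF peak (quartiles 1121.25 and 10904), with 23.2% (21.5 to 24.9) within 1 kb and 73.1% (71.3 to 74.8) within 10 kb. The 3047 GAF peaks off Yki had a median gap of 4670 bp to the nearest Yki peak (1254.5 and 14232.5), with 21.2% (19.8 to 22.7) within 1 kb and 67.2% (65.5 to 68.8) within 10 kb. Gaps over 50 kb occurred for 51 Yki and 195 GAF peaks. From the lowest to the highest quartile of the Yki score, the median distance of Yki peaks to GAF was 4196, 4286, 4562 and 4479 bp, and the share within 1 kb was 25.8%, 24.0%, 19.4% and 18.9%. That of GAF peaks to Yki was longer at higher GAF scores, with medians of 2717.5, 5088, 6756.5 and 6598 bp, and the share within 1 kb was 31.9% (29.3 to 34.7) in the lowest and 9.66% (5.84 to 15.6) in the highest quartile, which holds 145 such peaks. The share of GAF peaks at embryo H3K4me3 was 54.5% on a Yki peak, 29.0% (25.6 to 32.6) within 1 kb of one, 19.4% (17.4 to 21.6) at 1 to 10 kb and 10.6% (8.84 to 12.7) beyond. Of all Yki peaks 52.2% were at embryo H3K4me3: 47.3% of those on a GAF peak, 56.0% (51.9 to 60.1) within 1 kb, 62.0% (59.2 to 64.7) at 1 to 10 kb and 61.9% (58.1 to 65.6) beyond.

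**Figure D5:**
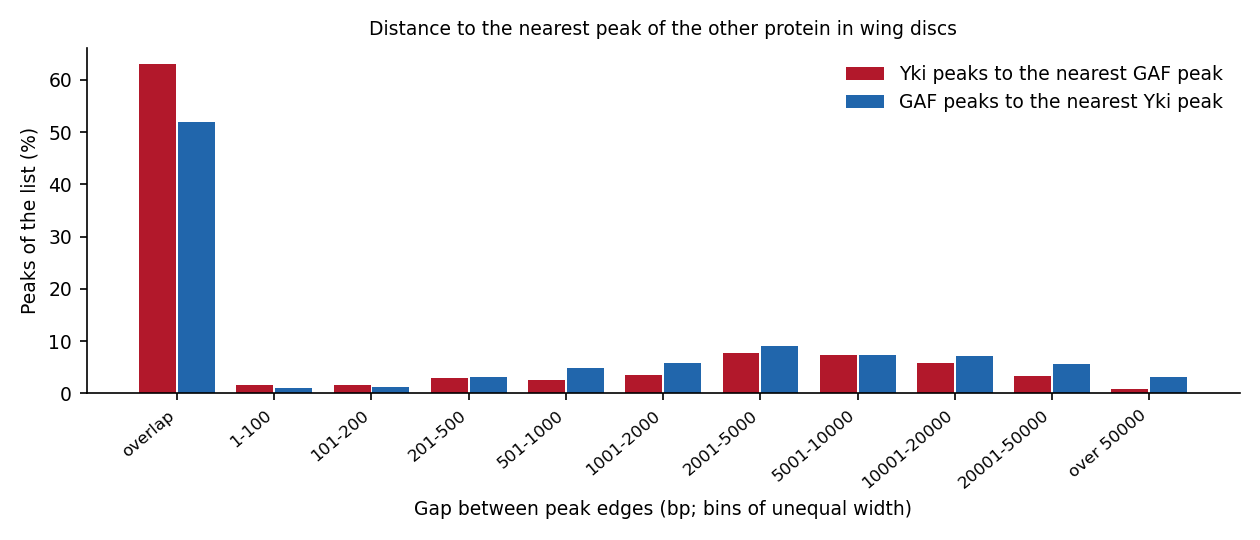
Share of each list in percent by the gap in bp to the nearest peak of the other protein, in bins of unequal width, for Yki peaks (red) and GAF peaks (blue). The overlap bin holds 63.0% of Yki and 51.8% of GAF peaks, and no other bin passes 9.04%.

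Yki peaks off GAF also occurred in runs. Counting neighbours up to 1 kb apart with no GAF peak between them, 691 of the 2402 Yki peaks off GAF (28.8%) stood in 313 groups of 2 or more. For GAF off Yki it was 631 of 3047 (20.7%) in 290 groups. The largest Yki group, chosen after its values were seen, had 8 peaks over 7212 bp on 3L from 3192196 to 3199407, of 205 to 1536 bp with scores of 11.3 to 22.07, and 6 of the 8 overlapped embryo H3K4me3. Single GAF peaks off Yki were at embryo H3K4me3 in 20.7% (19.1 to 22.4) of cases and grouped pairs in 11.5% (9.01 to 14.7), whereas for Yki off GAF the shares were 59.5% (57.2 to 61.8) for single peaks, 65.0% (60.9 to 69.0) for pairs and 56.5% (47.1 to 65.4) in groups of 3, with no steady order. In groups of 3 GAF peaks off Yki the share was 6.48% (3.17 to 12.8).

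The peaks with the highest scores off the other protein's list were looked up in the embryo lists. The Yki peak off GAF with the highest score lay on 3L from 21702748 to 21703689 (score 72.05, percentile 99.8), 17971 bp from the nearest GAF peak, and overlapped no embryo peak of Yki, GAF or H3K4me3. The other 4 of the 5 highest lay on 2R at 2549089 and 8767230, on 3L at 21297467 and on 3R at 25562235. These 4 were all in the embryo lists of Yki and H3K4me3 and not of GAF. Their gaps to wing disc GAF were 8058, 3539, 26959 and 869 bp. Among all Yki peaks off GAF in the highest score quartile, 65.4% were at embryo H3K4me3. Shares of that class in the embryo Yki and GAF lists were not computed. The 5 GAF peaks off Yki with the highest scores were all in the embryo GAF list and not at embryo H3K4me3, where the shares for all GAF peaks without Yki in the highest score quartile were 97.2% and 22.1%. The first of them, 5082 bp on 3L from 1098248 to 1103329 (score 503.46, percentile 97.8), had its nearest wing disc Yki peak 4949 bp away but overlapped an embryo Yki peak. Another, 6778 bp on 3R from 7804244 to 7811021 (percentile 91.5), had Yki 1158 bp away and in the embryo on the peak itself. Such overlap is common in this class: 53.8% (45.7 to 61.7) of all GAF peaks without Yki in the highest score quartile overlapped an embryo Yki peak. The widest Yki peaks lay on 2L from 2750805 to 2755711 (4907 bp, on 2 GAF peaks), on 2L from 5977167 to 5981383 (4217 bp) and on 2R from 8473950 to 8477980 (4031 bp), each at embryo H3K4me3. Of all Yki peaks 52.2% were, and wide peaks reach an overlap of 1 bp more easily. The share among wide Yki peaks was not computed. Besides the widest GAF peak on 3R, GAF peaks of 8580 bp on X from 7584586 and of 8439 bp on 2R from 14685964 held 3 and 4 Yki peaks, and these 3 GAF peaks were also the longest merged sites, with no Yki peak reaching past their edges.

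Across the 4 large autosome arms, Yki peaks lay on GAF in 59.2% (2L) to 63.7% (3R) of cases and GAF peaks held Yki in 54.4% (3R) to 55.4% (3L). On X the 2 shares moved apart: 70.2% (67.4 to 72.9) of 1035 Yki peaks lay on GAF, and 42.9% (40.1 to 45.6) of 1248 GAF peaks held Yki. The number of peaks also differed there, since X had fewer Yki than GAF peaks and each large autosome arm had more. GAF peaks with at least 2 Yki peaks made up 10.7% of those on X and 10.3% (2L) to 11.4% (3R) of those on the autosome arms. On the small chromosome 4, 12 of 42 Yki peaks (28.6%, 17.2 to 43.6) lay on GAF and 10 of 41 GAF peaks held Yki. The unplaced scaffolds had 2 Yki peaks, of which 1 lay on GAF, and 45 GAF peaks, of which 1 held Yki.

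The same measures in embryos gave a different geometry, from lists whose peak caller is not given in the sources used here. The Yki peak lay wholly inside the GAF peak in 66.4% (64.9 to 67.8) of 4177 wing disc pairs and in 89.4% (88.2 to 90.6) of 2592 embryo pairs. Of GAF peaks with Yki, 20.8% (19.5 to 22.2) held at least 2 Yki peaks in wing discs and 16.4% (14.9 to 18.1) in embryos, and their median widths were 2285 and 2961 bp. The Yki lists differ in size, with 6491 peaks in wing discs and 3749 in embryos. The most Yki peaks in 1 GAF peak was 6 in wing discs and 13 in embryos. In pairs of 1 Yki and 1 GAF peak the median distance between midpoints was 127.5 bp in wing discs, with a median GAF width of 941 bp, and 112 bp in embryos, with 1261 bp. Tissue cannot be told apart from calling and depth in these differences.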

How the data were processed

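The authors deposited 1 peak list per antibody and tissue. The labels' protocols describe transposase-made libraries, 12 PCR cycles and fragments near 225 bp, so PCR copies and the transposase's sequence preference can shape peaks in ChIP and input alike. CASAVA 1.7.0, the aligners BWA and Bowtie and the build dm3 are named per the submitters' processing notes. Peak names in the 2 wing disc lists start with MACS, a peak caller. Its version and thresholds, the use of input and how replicates were combined: not given in the sources used here. Starts and ends are the deposited positions in bp, printed counting from 1, and column 5 of the wing disc lists is the authors' score, used only as a rank (ties share the mean rank).

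Overlaps of at least 1 bp, gaps between edges, Spearman's rho and Wilson intervals (95%) were computed with scipy 1.17.1, pandas 2.3.3 and numpy 2.4.6 under Python 3.11.15, with matplotlib 3.10.9 for figures. The steps were tested on simulated lists with planted overlaps, gaps and ranks. Peaks are not replicates, so no p-values are given. Other overlap rules, the top-scoring 50% of each list, joining of close peaks and removal of X, 4, heterochromatin and scaffolds were tried. Quartiles of score and width were taken over each whole list. The regions named are drawn from the 5 GAF peaks with most Yki, the 5 pairs with both scores highest, the 5 with the largest rank excess each way, the 5 highest scores off the other list, and the 3 widest peaks and longest merged sites, leaving out unplaced scaffolds. Members, lists and rules were chosen with earlier results of these data known. Planned gene lists and motif counts were not run, since no dm3 genome or annotation was used here. Input libraries have no list here.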

Additional observations from a re-analysis of the deposited data

How the results depend on the processing

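Of 76 values recomputed for 21 results, 29 stayed within the interval of the reported value or, for counts, within 1.5 times, 46 lay outside it and 1 changed sign. The settings for arrangement, for spacing and for the embryo lists were chosen after seeing the data. The Yki share on GAF (63.0%) was 61.0% with 100 bp shared, 20.3% with a reciprocal overlap of 50%, 50.2% with midpoints within 500 bp and 61.6% in the top-scoring 50% of each list. The GAF share with Yki (51.8%) was 50.4%, 20.8%, 48.5% and 53.5% under these rules, and 54.9% without X, 4, heterochromatin and unplaced scaffolds. GAF peaks with several Yki peaks (683) numbered 439 with Yki peaks within 200 bp joined and 279 in the highest 50% of scores. Yki peaks with several GAF peaks (85) numbered 39 with GAF midpoints inside and 38 with GAF peaks joined. Yki lay inside GAF (66.4% of pairs) in 68.9% at 100 bp, 60.8% of 1-to-1 pairs, 82.1% in the highest 50% and 64.6% without X, 4 and the scaffolds. The midpoint distance (219.5 bp over all pairs) was 127.5 bp in 1-to-1 pairs and 244.5 bp in the highest 50%. The rho of the scores (0.31) was 0.44 with the highest scoring Yki peak per GAF peak, 0.41 in 1-to-1 pairs, 0.58 with a reciprocal overlap, 0.39 with midpoints within 500 bp and 0.28 after both widths. Gaps from Yki to GAF (4348 bp) were 4997 bp between midpoints and 10054 bp in the highest 50%. Gaps from GAF to Yki (4670 bp) were 5189, 10662 and, without X, 4 and the scaffolds, 4178.5 bp. In the highest 50% of scores the median widths were 625 bp for Yki and 1233 bp for GAF, and the median gaps within a list 13288.5 bp for Yki and 16570 bp for GAF.

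For H3K4me3 the difference in embryo overlap between GAF peaks with and without Yki (36.0 points) was 23.2 with GAF midpoints inside the embryo peak, 11.7 with a reciprocal overlap and 32.8 with midpoints within 500 bp for Yki. In the narrowest quartile (36.7) it was 28.6 with midpoints inside and -0.66 with a reciprocal overlap, and in the widest (30.6) 17.6 with a reciprocal overlap and 10.1 with midpoints within 500 bp. For embryo GAF it was 8.10, 17.6 and 4.58 points over all peaks (10.6) in the same order of rules. With a reciprocal overlap it was -10.7, -15.3, -0.95 and 13.2 points from the narrowest to the widest quartile (-29.8, -28.6, -10.8 and 1.78). The causes of these shifts were not tested.

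No paired analysis was possible because each antibody has 1 list per tissue. Leaving out a library was not run for the same reason. Depth is unknown, so a peak missing from a list does not show absence of binding.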
